A study of Mus musculus with 12 samples.

Results

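The methionine cycle and one-carbon genes are 10 genes of liver metabolism, Bhmt, Gnmt, Mat1a, Ahcy, Cbs, Cth, Shmt1, Shmt2, Mthfd1 and Nnmt. They were picked by gene symbol, with earlier results of these data known, and all 10 were found among the 25033 entries of the Ribo-seq table. Ribosome footprint sequencing (Ribo-seq) reads the stretches of mRNA that ribosomes shield from nuclease, and a gene's reads therefore reflect how many ribosomes were translating it. That the reads used here are footprints rests on the label of the libraries, since a second table labelled mRNA holds largely the same reads. The comparison asked how the footprints on these genes differed in the livers of mice when lycopene was added to a high-fat diet. The libraries came from male C57BL/6 mice (written C57/BL6 in the study's methods). The mice were 16 weeks of age and had been fed for 8 weeks from the age of 8 weeks. The HFD group (3 Ribo-seq libraries) received the high-fat diet, and the LYC group (3 Ribo-seq libraries) received the high-fat diet plus lycopene, a carotenoid pigment of tomato. Both groups share the high-fat diet, and no chow-fed group was analysed here. For the LYC samples the treatment label names the high-fat diet alone, and the lycopene is known from the sample titles and the design text. The labels also describe pooling of material before library construction. The study's methods mention pooling of digested samples as well. That a library stands for 1 mouse therefore depends on the titles and on the study calling the libraries biological replicates, and the p-values measure the spread between these libraries.

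In the methionine cycle, Mat1a joins methionine to ATP to make S-adenosylmethionine (SAM), the methyl donor of the cell. Methyltransferases such as Gnmt and Nnmt spend SAM, Ahcy splits the S-adenosylhomocysteine that they leave, and the homocysteine so formed is either remethylated to methionine (Bhmt) or passed through Cbs and Cth to cysteine. The folate enzymes Shmt1, Shmt2 and Mthfd1 supply the one-carbon units that can also be used for remethylation. The liver carries out most of the methionine breakdown of the body, and hepatocytes are rich in these enzymes.

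The libraries differed in depth and composition. The steps between RPKM values (reads per kilobase of gene, scaled to the library's total reads) correspond to totals of 834410 to 4405541 reads in HFD and 311050 to 412116 reads in LYC, so that 1 read on 1 kb was worth 0.227 to 1.20 RPKM in HFD and 2.43 to 3.21 RPKM in LYC. Each RPKM was divided by a TMM factor, edgeR's scaling between libraries, and levels below are in this scaled RPKM unless stated otherwise. Lars2, a mitochondrial leucyl-tRNA synthetase picked here for its values, held 0.110% to 0.233% of HFD reads and 0.0792% to 0.0866% of LYC reads on listed genes. In a second deposited table made from largely the same reads, described at the end, Lars2 held 6.68% to 15.0% of HFD counts but 35.9% to 40.3% of LYC counts, and its part in the results below was not tested. Hepatocyte markers were abundant in every library, with Alb at 13379 to 29641 RPKM as deposited. The cholangiocyte markers Krt19, Krt7 and Epcam had 0 to 8 reads in the deeper HFD libraries and 0 in LYC, and Spp1 and Sox9 of the same list had 1 to 4 reads in each LYC library. The 5 markers of that list had too few reads to be tested, but their summed level was lower in every LYC library (3.61 to 9.21) than in HFD (15.0 to 23.7), mostly through Spp1 at 10.0 to 19.5 in HFD and 2.09 to 8.44 in LYC. Their part in the results was not tested. In bulk liver, fewer cells of a type and less RNA per cell cannot be told apart.

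Two-sided limma tests compared LYC with HFD for 5667 genes on log2(scaled RPKM + 1), where the added 1 makes the fold change of a low gene too small. Calls needed a log2 fold change beyond 1 in either direction together with an unadjusted p below 0.01, and adjusted p-values (Benjamini-Hochberg over all genes tested) are given beside it. All 10 members were tested and 2 were called, Nnmt and Gnmt, both higher in LYC. Over all genes 13.5% were called, 6.97% higher and 6.49% lower, so a count of 2 of 10 is not far from the background. The log2 fold change was above 0 for 7 members and below 0 for 3, against 44.9% of all genes above 0. The median log2 fold change was 0.73 over the members and -0.10 over all genes. The LYC and HFD libraries did not overlap for 7 members (Nnmt, Gnmt, Mthfd1, Shmt1, Cth and Mat1a higher in LYC, Shmt2 lower), while 38.0% of all genes did not overlap. Of the 2 called members, both also had an adjusted p below 0.05, as did 11.8% of all genes. Of 8 hepatocyte markers, 2 were also called higher, Tat (log2 fold change 1.55, adjusted p = 0.0183) and Cps1 (1.07, adjusted p = 0.0555), neither with overlap between the groups. The median of that list was 0.24, and its summed level was 36710 to 41913 in HFD and 31438 to 43722 in LYC. Its part in the members' values was not tested.

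**Figure D1:**
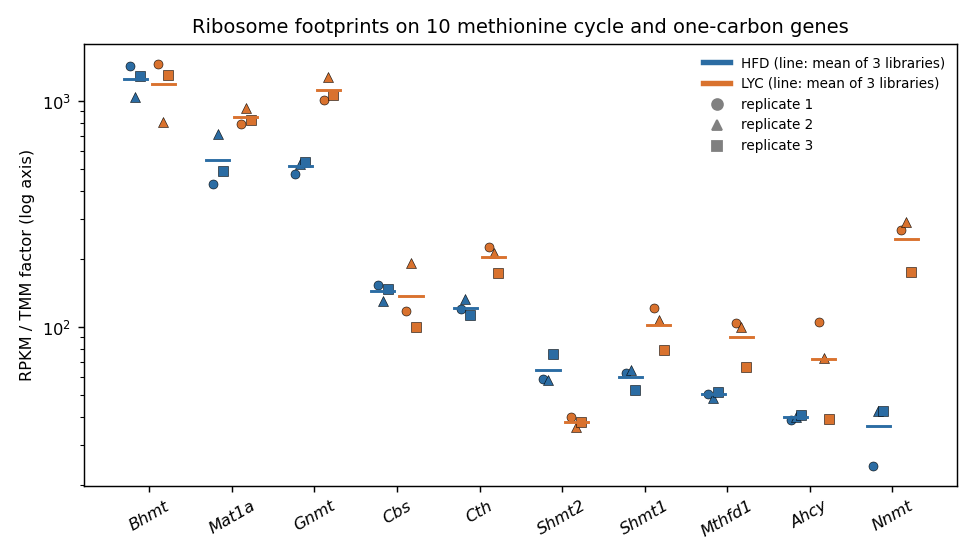
Footprint level of the 10 genes in each Ribo-seq library, as RPKM divided by the TMM factor on a log axis, with HFD in blue, LYC in orange, 1 symbol per replicate and a line at the mean of 3 libraries. Nnmt shows the widest separation, from 24.4 to 42.7 in HFD to 174 to 291 in LYC, whereas the symbols of Bhmt and Cbs intermix.

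Added over the 10 genes, the level was 2834, 2793 and 2831 in HFD1, HFD2 and HFD3 and 4224, 4016 and 3841 in LYC1, LYC2 and LYC3. All 3 LYC sums lay above all 3 HFD sums. As a share of the reads on listed genes, without any scaling, the members took 0.770% to 0.888% in HFD and 0.799% to 0.930% in LYC, and on that measure the groups overlapped. As a share of the summed RPKM as deposited, they took 0.316% to 0.403% in HFD and 0.159% to 0.273% in LYC, which is lower in every LYC library. Over all genes tested, the summed level was also higher in LYC (1.45e+06 to 2.62e+06) than in HFD (679469 to 869490). The direction for the members together thus depends on the measure, a summed level or a share of the library.

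SAM synthesis is represented by Mat1a, the liver form of methionine adenosyltransferase (GRCm38 chr14:41105035-41124412, plus strand). Its level was 430, 714 and 489 in HFD1, HFD2 and HFD3 and 786, 923 and 823 in LYC1, LYC2 and LYC3. Every LYC library was above every HFD library, and HFD2 lay apart from the other HFD libraries towards LYC. The log2 fold change was 0.66 (SE 0.26) with an adjusted p of 0.133, so Mat1a did not pass the test. Footprints lie on the coding sequence, while RPKM divides by the whole transcript, which is long for Mat1a (3486 bases, of which 1188 are coding). Counted per coding length, Mat1a stood at 2477 ± 208 (SD, n = 3) in LYC, ahead of Bhmt at 2004 ± 572 (SD, n = 3), and in HFD at 1598 ± 440 behind Bhmt at 2114 ± 329. Both pairs of ranges overlapped.

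The 2 called members are both methyltransferases that consume SAM. Gnmt, glycine N-methyltransferase, is an abundant liver enzyme that disposes of excess SAM by methylating glycine to sarcosine (chr17:46725664-46729168, minus strand). Its level was 475, 524 and 537 for HFD1, HFD2 and HFD3, on 425 to 2697 reads. For LYC1, LYC2 and LYC3 it was 1007, 1278 and 1057, on 294 to 371 reads. The lowest LYC library was well above the highest HFD library. Gnmt rose 2.18-fold in mean level, from 512 ± 33.1 to 1114 ± 144 (SD, n = 3 each), with a log2 fold change of 1.11 (SE 0.23) and an adjusted p of 0.0184. This call sits close to the fold limit. It was lost with RPKM as deposited (0.83, adjusted p = 0.0727), without the filter on low genes (0.99, adjusted p = 0.0411) and with the trend on gene length removed (0.84, adjusted p = 0.0401).

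Nnmt, nicotinamide N-methyltransferase, transfers the methyl group of SAM to nicotinamide, a form of vitamin B3 (chr9:48591877-48605153, minus strand). Its level was 24.4, 42.5 and 42.7 in HFD1, HFD2 and HFD3 and 269, 291 and 174 in LYC1, LYC2 and LYC3. The shallower LYC libraries held 86, 92 and 67 reads on the gene, against 70, 240 and 37 reads in HFD. HFD1 was the lowest and LYC3 the lowest of its group, and the groups were far apart. Nnmt rose 6.69-fold in mean level, from 36.5 ± 10.5 to 244 ± 61.9 (SD, n = 3 each), with a log2 fold change of 2.72 (SE 0.31) and an adjusted p of 0.00139. It was called in all 14 alternatives run on it, with log2 fold changes of 2.44 to 2.91.

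Nnmt is also known from adipose tissue, so the adipocyte markers were read beside it. Plin1 and Lep had no reads in any library, and Adipoq had 3 reads in HFD2 alone. Cidec of that list was higher in every LYC library (3.70, 16.8 and 24.6) than in HFD (1.37 to 1.65), on 2 to 16 reads in LYC. Cfd was higher in LYC2 and LYC3 and had no reads in LYC1, and the list of 5 summed to 3.50 to 5.95 in HFD and to 3.70, 29.4 and 52.2 in LYC1, LYC2 and LYC3. None of the 5 markers had enough reads to be tested, and their part in the Nnmt result was not tested.

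The order of the levels changed most for Nnmt. In HFD, scaled RPKM ran from Bhmt (1246 ± 194) through Mat1a, Gnmt, Cbs, Cth, Shmt2, Shmt1, Mthfd1 and Ahcy to Nnmt (36.5 ± 10.5), each a mean ± SD of 3 libraries. Neighbours in this order whose libraries overlapped were Mat1a and Gnmt, Cbs and Cth, Shmt2 and Shmt1, and Ahcy and Nnmt. In LYC, Bhmt and Gnmt led with overlapping libraries, Mat1a followed, and Nnmt came next at 244 ± 61.9, overlapping Cth. Below Nnmt, every neighbouring pair in LYC overlapped, down to Shmt2 at 38.0 ± 1.88. The place of Ahcy depends on how its reads were shared with the near-identical gene Gm4737, described below. With the reads of both added, at the length of Ahcy, the level was 412 ± 31.5 in HFD and 634 ± 187 in LYC.

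Ahcy encodes S-adenosylhomocysteine hydrolase (chr2:155059310-155074497, minus strand), and footprints from most of its coding sequence fit a copy as well. Gm4737, tagged a retrogene by GENCODE M21 (chr16:46152985-46155077, minus strand), has a coding sequence of the same 1296 bases that differs at 4 of them, an identity of 99.7%. Of the 1267 words of 30 bases in the Ahcy coding sequence, 1174 also occur in that of Gm4737 and 98.4% occur in some other gene. The stretch below, bases 385 to 474 of both coding sequences, is shown because it holds 2 of the 4 differing bases, which are in capitals.
Ahcy: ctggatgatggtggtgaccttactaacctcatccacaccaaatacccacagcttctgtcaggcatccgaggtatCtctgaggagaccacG
Gm4737: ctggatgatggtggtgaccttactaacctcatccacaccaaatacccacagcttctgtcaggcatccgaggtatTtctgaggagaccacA
A footprint of about 30 bases from most of this stretch fits both genes equally well. Only one that covers a capital can be told apart between these 2 genes, and it may still occur in another gene. The sequences are those of the GENCODE M21 transcripts on GRCm38.

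In the Ribo-seq table Ahcy held 280, 566 and 89 reads in HFD, then 84, 58 and 38 reads in LYC, while Gm4737 held 2431, 5594 and 836 reads in HFD, then 586, 420 and 411 in LYC. Ahcy thus received 8.46% to 12.5% of the reads on both in every library. In the second deposited table it received 51.0% to 57.4% of nearly the same totals. The RPKM of Ahcy therefore depends on how the table shared out these reads. Its level was 38.9, 40.0 and 40.9 in HFD and 105, 73.0 and 39.4 in LYC, with LYC3 inside the HFD range. The log2 fold change was 0.73 (SE 0.35, adjusted p = 0.195), and that of Gm4737 was 0.56 (SE 0.26, adjusted p = 0.192). The reads of both genes were also added, a choice made after the values were seen. At the length of Ahcy the summed level was 376, 435 and 425 in HFD and 835, 602 and 465 in LYC, without overlap. The fit of this sum lacked values for HFD1 and HFD2, so its log2 fold change of 0.53 sets HFD3 alone against LYC. Without LYC3 the log2 fold change of Ahcy was 1.07 and passed the call (adjusted p = 0.0239), and without LYC1 it was 0.43 (adjusted p = 0.403).

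**Figure D2:**
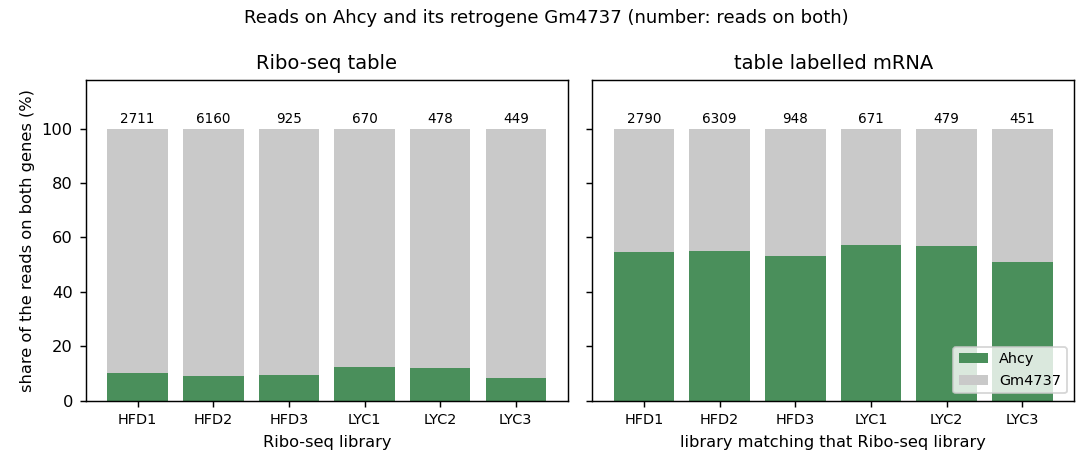
Share of the reads on Ahcy and Gm4737 that each deposited table gives to either gene, in percent, for the 6 Ribo-seq libraries (left) and the library of the second table that matches each (right), with the reads on both genes above each bar. Ahcy takes 8.46% to 12.5% on the left and 51.0% to 57.4% on the right, although the totals are close, for instance 670 and 671 reads for LYC1.

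For Bhmt and Cbs, the enzymes that first act on homocysteine in its main routes, the HFD and LYC libraries overlapped. Bhmt, betaine-homocysteine methyltransferase (chr13:93616675-93637961, minus strand), uses betaine to remake methionine. Levels of 1421, 1037 and 1281 were measured in HFD, and of 1450, 803 and 1292 in LYC. LYC2 was the lowest of all 6 libraries, and the other LYC libraries lay near the HFD libraries. For Bhmt the log2 fold change was -0.11 (SE 0.30, adjusted p = 0.840), and without LYC2 it was 0.15. As with Ahcy, 93.5% of the 30-base words of the Bhmt coding sequence occur in another gene, mostly Gm5096, which was not analysed here, so its level may lack or include reads of that copy. Exons of Bhmt also overlap those of Gm15622 on the opposite strand, and whether reads were counted by strand is not given in the sources used here.

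Cbs, cystathionine beta-synthase, commits homocysteine to cysteine synthesis (chr17:31608894-31637238, minus strand). Its level was 154, 131 and 147 in HFD but 117, 193 and 99.6 in LYC. The highest and the lowest values were both in LYC, with LYC2 above every other library. For Cbs the log2 fold change was -0.13 (SE 0.28, adjusted p = 0.799), and without LYC3 it was 0.029. Cth, cystathionine gamma-lyase, releases cysteine in the next step (chr3:157894248-157925077, minus strand). Its level was 120, 133 and 113 in HFD and 225, 213 and 173 in LYC. Here the groups did not overlap, and the mean was 122 ± 10.1 in HFD but 204 ± 27.5 in LYC (SD, n = 3 each). The difference for Cth was a log2 fold change of 0.73 (SE 0.22) with an unadjusted p of 0.00998 and an adjusted p of 0.0676, short of the fold limit.

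The folate enzymes included a pair of isozymes with opposite signs. Shmt1, the cytosolic serine hydroxymethyltransferase (chr11:60788104-60811718, minus strand), moves a one-carbon unit between serine and folate. Its level was 62.7, 64.3 and 52.6 in HFD and 121, 107 and 79.0 in LYC. Shmt2, the mitochondrial form of the same enzyme (chr10:127517123-127522444, minus strand), stood at 59.0, 58.6 and 75.8 in HFD and at 40.0, 36.2 and 37.8 in LYC. Neither pair of groups overlapped, Shmt1 being higher in LYC and Shmt2 lower. Fitted differences on the log2 scale were 0.75 (SE 0.25, adjusted p = 0.0857) for Shmt1 and -0.74 (SE 0.23, adjusted p = 0.0734) for Shmt2, and neither was called. Shmt2 rested on 26 to 33 reads in the LYC libraries. With RPKM as deposited, Shmt2 passed the call (-1.02, adjusted p = 0.0326). Mthfd1, a cytosolic enzyme with several activities that interconverts one-carbon folates (chr12:76255298-76319803, plus strand), stood at 50.6, 48.7 and 51.7 in HFD and at 104, 100.1 and 66.5 in LYC. Its HFD libraries lay close together and below all LYC libraries, with LYC3 the nearest, and the log2 fold change of 0.80 (SE 0.25, adjusted p = 0.0727) was not called.

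**Figure D3:**
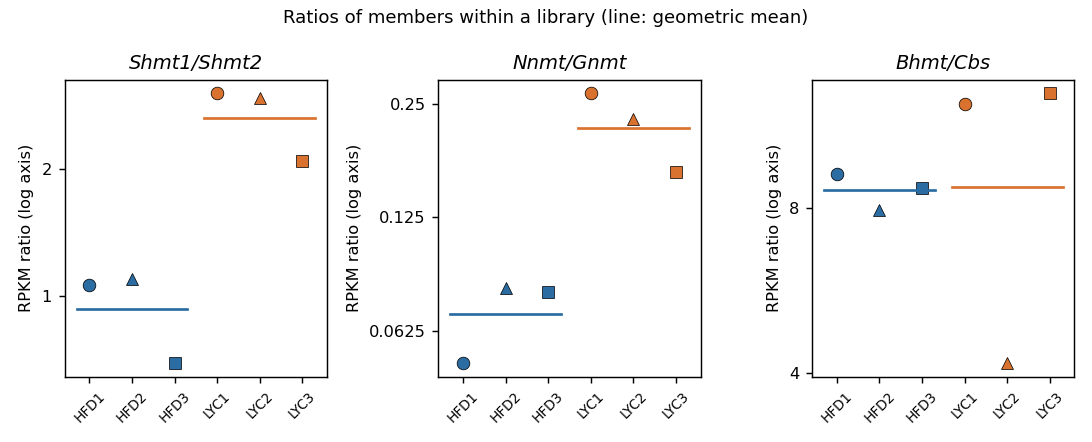
Ratio of the RPKM of 2 genes within each Ribo-seq library on a log axis, for Shmt1 over Shmt2, Nnmt over Gnmt and Bhmt over Cbs, with HFD in blue, LYC in orange, 1 symbol per library and a line at the geometric mean of 3 libraries. The first pair of ratios separates the groups, with Shmt1 over Shmt2 at 0.694 to 1.10 in HFD and 2.09 to 3.03 in LYC, and Bhmt over Cbs does not.

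A ratio of genes within a library does not depend on the scaling between libraries, and 3 such ratios were compared. Shmt1 over Shmt2 was 1.06, 1.10 and 0.694 in HFD but 3.03, 2.95 and 2.09 in LYC. The LYC ratios were all above the HFD ratios, by 2.85-fold in the geometric mean, with a two-sided exact permutation p of 0.1 (n = 3 against 3), the smallest that 20 arrangements allow, and 0.15 after Benjamini-Hochberg adjustment over the 3 ratios. Nnmt over Gnmt was 0.0514, 0.0812 and 0.0794 in HFD and 0.267, 0.227 and 0.165 in LYC, 3.11-fold higher with the same exact p of 0.1 and adjusted p of 0.15. Bhmt over Cbs was 9.24, 7.94 and 8.72 in HFD but 12.4, 4.17 and 13.0 in LYC, with LYC2 on the far side of HFD from LYC1 and LYC3, a 1.02-fold difference and an exact permutation p of 1. With 3 libraries a group, no ratio could reach an exact p of 0.05.

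Isozymes and relatives of the members were read from wider lists of the pathway. Mat2a, the methionine adenosyltransferase of tissues other than adult liver, stood at 12.1, 13.7 and 13.0 in HFD and 43.2, 29.5 and 17.6 in LYC, with no overlap (log2 fold change 1.07, SE 0.35, adjusted p = 0.0786) and no call by limma. It was called by edgeR and by DESeq2 on the recovered reads, and without LYC3. Mat2b, which encodes the regulatory subunit of that enzyme, was called lower, at 10.3, 16.0 and 10.8 in HFD and 6.17, 3.12 and 3.85 in LYC (log2 fold change -1.33, SE 0.35, adjusted p = 0.0402), on 2 to 4 reads in LYC. It passed the filter on low genes through the HFD libraries alone, and it dropped out of the test without any 1 of the HFD libraries. The Mat2b call was lost without LYC2, without LYC3 and with DESeq2. Bhmt2, which remethylates homocysteine with S-methylmethionine, had a log2 fold change of 0.29 (adjusted p = 0.411). The Ahcy relatives Ahcyl1 and Ahcyl2 had 0.81 (adjusted p = 0.136) and 0.03 (adjusted p = 0.969). The mitochondrial folate enzymes Mthfd1l and Mthfd2 had 0 to 7 reads and 0 to 2 reads a library and were not tested.

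The wider lists named 69 genes besides the members, of which 68 were listed and 42 had enough reads to be tested. Of these 42, 5 were called higher and 4 lower (13.5% of all genes were called), and their median log2 fold change was 0.26 (-0.10 over all genes). The groups did not overlap for 21 of them (38.0% of all genes), and 29 were above 0 (44.9% of all genes). The called genes Mat2b and Slc46a1 passed the filter only through HFD and Slc25a32 only through LYC, the groups where they are high, so these counts are a description. Among 9 methyltransferases that use SAM, 3 were called higher and 1 lower (6.97% and 6.49% of all genes), with a median of 0.96. The 3 called higher were the members Gnmt and Nnmt, and Inmt, while the gene called lower is not reported here. Inmt, which methylates indolamines, rose from 135, 151 and 134 to 269, 460 and 234 (log2 fold change 1.13, SE 0.29, adjusted p = 0.0376). The Inmt call was lost with RPKM as deposited, with the length trend removed and without HFD1, HFD3 or LYC2.

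Of 25 genes of folate and one-carbon handling, 13 were tested, 2 were called higher and 2 lower, with a median of 0.05. Gldc, the glycine decarboxylase of the mitochondrial glycine cleavage system, fell from 51.6, 70.3 and 65.8 in HFD to 22.6, 22.8 and 23.7 in LYC (log2 fold change -1.39, SE 0.24, adjusted p = 0.00944), and it was called in all 14 alternatives. Dld, the dihydrolipoamide dehydrogenase that the same system shares with other mitochondrial complexes, rose instead (log2 fold change 1.05, SE 0.24, adjusted p = 0.0251), and the mitochondrial folate carrier Slc25a32 was called higher (1.23, SE 0.30, adjusted p = 0.0318). The Gldc and Dld libraries did not overlap between groups. Slc46a1, the proton-coupled folate transporter, was called lower at -2.19 (SE 0.62), although its adjusted p was 0.0525 and it rested on 1 to 10 reads in LYC, passing the filter through HFD. Leaving out 1 library ended the calls of Dld (HFD3 or LYC2), Slc25a32 (HFD1 or HFD3) and Slc46a1 (HFD2, HFD3, LYC1 or LYC2), those of Dld and Slc25a32 were also lost with RPKM as deposited, and those of Dld and Slc46a1 without the filter on low genes.

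Of the serine genes only Sds, serine dehydratase, had enough reads. It rose from 36.4, 46.9 and 45.2 in HFD to 114, 242 and 102 in LYC (log2 fold change 1.71, SE 0.34, adjusted p = 0.0174). Of 5 tested genes that make or use nicotinamide compounds, Nampt, which recycles nicotinamide towards NAD, rose from 9.54, 9.24 and 6.17 to 22.3, 29.5 and 22.6 (log2 fold change 1.48, SE 0.30, adjusted p = 0.0169). Sds and Nampt were called in all 14 alternatives, and LYC2 held the highest level of both. In the lists of choline breakdown to glycine (4 tested), transsulfuration and cysteine (8 tested) and polyamine synthesis and salvage (4 tested), limma called 0 genes. In each of these lists 1 gene had an unadjusted p below 0.05, and edgeR and DESeq2 on the recovered reads called 0 as well.

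**Figure D4:**
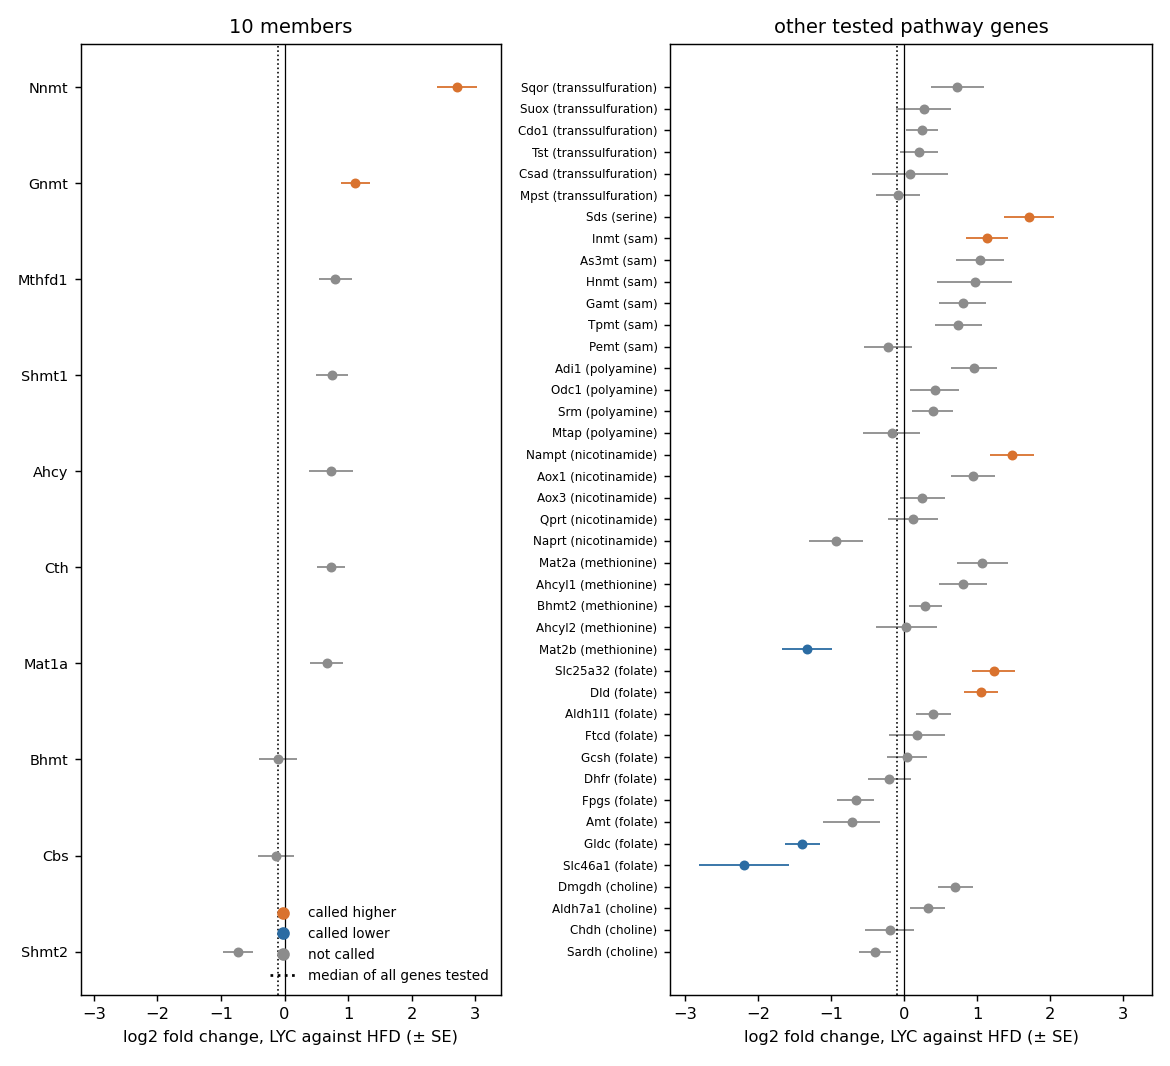
Log2 fold change of LYC against HFD with its SE from the limma test, for the 10 genes (left) and all but 1 of the 42 other tested genes of the pathway lists (right, list name in brackets), in orange for called higher, blue for called lower and grey for not called. Nnmt at 2.72 lies far to the right of the dotted line that marks the median of all genes tested (-0.10), and Slc46a1 at -2.19 lies farthest to the left with a wide error.

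Promoters were compared because 7 of the 10 members had a log2 fold change above 0. RefSeq (GRCm38.p6) promoters, from 250 bases before to 50 bases after the annotated start, were found for Bhmt, Gnmt, Ahcy, Cbs, Shmt1, Shmt2 and Mthfd1, 7 members in all. These are not the 7 members above 0, since Mat1a, Cth and the called member Nnmt, all above 0, had no promoter entry. On either strand, CCAAT was found in 6 of these 7 promoters and in 37.9% of 27025 promoters. The Shmt2 promoter was the 1 without it, and those of Bhmt and Cbs, whose log2 fold changes were also below 0, held 2 matches each. CACGTG occurred in the Cbs promoter alone (7.24% of all promoters), and TGATGNAAT (0.969% of all) and TATAAA (14.2% of all) in none of the 7. The motifs do not overlap each other in these promoters. Promoters of Gnmt, a called member, and of Shmt2, which was not called, are given 5′ to 3′ on the minus strand, with matches to CCAAT or its reverse complement in capitals.
Gnmt, chr17:46729116-46729415: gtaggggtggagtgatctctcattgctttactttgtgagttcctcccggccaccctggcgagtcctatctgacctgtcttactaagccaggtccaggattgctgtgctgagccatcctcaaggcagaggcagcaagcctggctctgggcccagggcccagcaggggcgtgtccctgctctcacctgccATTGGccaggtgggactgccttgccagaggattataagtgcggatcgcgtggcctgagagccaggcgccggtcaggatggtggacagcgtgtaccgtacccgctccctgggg
Shmt2, chr10:127522395-127522694: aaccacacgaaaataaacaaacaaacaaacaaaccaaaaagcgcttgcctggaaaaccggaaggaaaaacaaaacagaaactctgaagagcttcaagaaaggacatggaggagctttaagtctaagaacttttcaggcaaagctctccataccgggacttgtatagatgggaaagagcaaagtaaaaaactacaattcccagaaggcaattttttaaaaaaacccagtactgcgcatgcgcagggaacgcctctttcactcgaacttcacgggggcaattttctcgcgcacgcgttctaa
A match is a string of letters and no evidence of binding, and no factor was measured here.

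The second deposited table, labelled mRNA, holds counts and RPKM for 3 HFD and 3 LYC libraries, but it did not give an independent measurement. Over 1334 genes with 20 or more reads in every Ribo-seq library, its LYC libraries held exactly the reads of the Ribo-seq libraries LYC1, LYC2 and LYC3 in 887, 891 and 849 genes. For each Ribo-seq library, 88.7% to 89.3% of these genes lay within 10% of the median ratio to 1 library of the second table, against 10.7% to 35.4% for every other pair. The matching libraries carried the same replicate number in LYC, while in HFD Ribo-seq libraries 1, 2 and 3 matched the libraries labelled mRNA 3, 1 and 2. The counts of Nnmt, Gnmt, Cth and Mthfd1 were identical in all 3 LYC libraries of both tables. Translational efficiency, the ratio of footprints to mRNA, was therefore not computed. Which assay gave the shared reads is not established here, and the levels are called footprints by the label of the Ribo-seq libraries. In that table edgeR's quasi-likelihood test called the same 2 members, Gnmt (log2 fold change 1.13, adjusted p = 0.00598) and Nnmt (2.77, adjusted p = 7.80e-06), against 16.6% of its 5921 tested genes. Since the reads are largely shared, this is no second measurement of either gene.

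**Figure D5:**
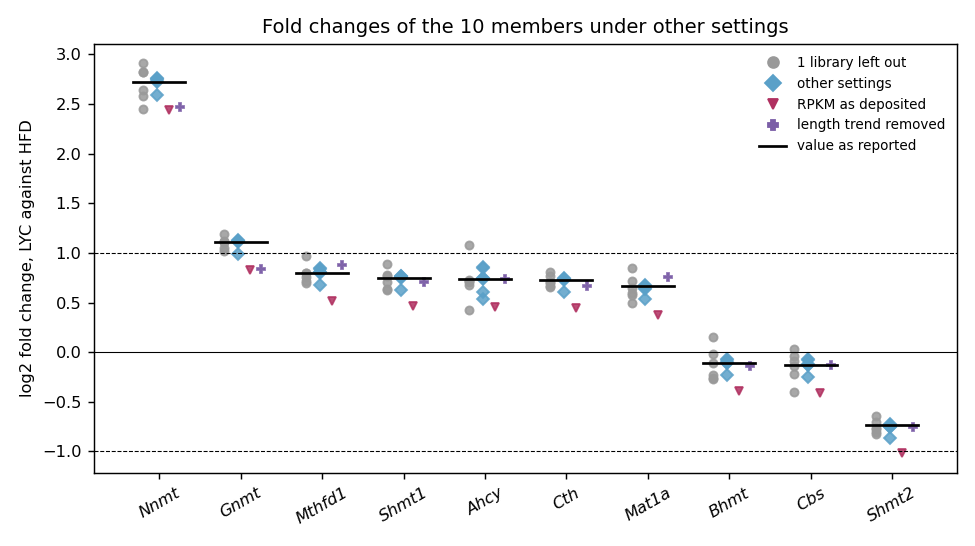
Log2 fold change of the 10 genes under each alternative, with the reported value as a black line, fits without 1 library in grey, RPKM as deposited as triangles, the length trend removed as crosses, other settings as diamonds, and dashed lines at the fold limits of 1 and -1. Nnmt stays between 2.44 and 2.91, Gnmt runs from 0.83 to 1.19 across the limit, and the values of Bhmt and Cbs lie on both sides of 0.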

How the data were processed

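Ribo-seq libraries of mouse liver (3 HFD, 3 LYC) were compared. Per the study's methods, reads were trimmed and filtered (cutadapt, bowtie2), mapped with STAR to GRCm38/mm10 and quantified by FANSE2, and for Ribo-seq the authors deposited RPKM. Tool versions and the annotation are not given in the sources used here. For the libraries labelled mRNA the authors deposited counts and RPKM.

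Since the Ribo-seq unit is RPKM, limma with a mean-variance trend was run, as planned, on log2(RPKM / TMM factor + 1). Reads were recovered from the steps of the RPKM values: of 15749 genes above 0, 11129 gave whole reads (within 0.02) with the length of the second table, 4619 with a fitted length, and 1 was rounded. In simulated data, 98.5% of values were recovered exactly. Low genes were removed with filterByExpr on these reads, and 4 entries sharing a name were left out. TMM factors were 1.03 to 1.26 in HFD and 0.80 to 1.00 in LYC. Fold and p limits are those of the study's results (its methods give a stricter p). The labelled mRNA counts were tested with edgeR's quasi-likelihood test. Scripts were tested on simulated data with 4-fold changes, where limma called 179 of 184 changed Ribo-seq genes with the right sign, and also 27 of 5367 that were unchanged.

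Members, lists and tests were chosen with earlier results of these data known. The genes named are the 10 members, their isozymes, the called genes of the pathway lists except 1 that is not reported here, and marker genes. Gm4737, Gm5096 and Gm15622 were named after their values or sequences were seen. In their titles, same-numbered HFD and LYC replicates carry different animal numbers. Tests used edgeR 4.0.16, limma 3.58.1 and DESeq2 1.42.0 under R 4.3.3, and tables and plots used pandas 2.3.3, numpy 2.4.6 and matplotlib 3.10.9 under Python 3.11.15.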

Additional observations from a re-analysis of the deposited data

How the results depend on the processing

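Nnmt was called in 14 of 14 alternatives and Gnmt in 11 of 14, including all 6 that left out a library. As reported, 395 genes were higher, 368 lower and 2 members called. RPKM as deposited, which moved the median of all genes from -0.10 to -0.36, gave 234 higher and 655 lower, and 2 members (Nnmt and Shmt2) were called. Without the filter 852 genes were lower and 1 member was called, and with the length trend removed 1 member was called. Leaving out each library gave 146 (without HFD3) to 742 (without LYC3) genes lower, 273 to 556 higher, and 2 to 3 members, the third being Ahcy without LYC3. In the libraries labelled mRNA, no filter gave 988 lower genes and 1 member (Gnmt at 0.95 was lost), and Mthfd1 was called without LYC3 at 1.03. Signs turned for Bhmt, which leaving out 1 library put at -0.27 to 0.15 (highest without LYC2), and in the labelled mRNA libraries at -0.21 to 0.17 (0.17 without LYC2, 0.047 without HFD3). They turned for Cbs, at -0.40 to 0.029 (highest without LYC3) and in the labelled mRNA libraries at -0.38 to 0.13 (0.13 without LYC3, 0.038 without LYC1). None of these was called. The log2 ratio of Bhmt to Cbs (0.022) was -0.037 without HFD2, -0.23 without LYC1 and -0.26 without LYC3, and 0.56 without LYC2; that of Shmt1 to Shmt2 stayed at 1.30 to 1.68 and that of Nnmt to Gnmt at 1.42 to 1.83. The causes were not tested. With the replicate number as a block, 748 genes and 2 members were called against 763 and 2, and Mat2b was not called. Deviations from the group means, gene by gene, correlated at 0.106, 0.0257 and -0.00383 between same-numbered libraries. The numbers do not pair mice. The sum of Ahcy and Gm4737 reads was added after seeing the data. At 311050 to 412116 reads in LYC, genes with few reads there were the least precise.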
